A study of Drosophila melanogaster with 18 samples.

Results

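The comparison described here sets heads of flies that lack miR-210 (miR-210Δ) against heads of control flies, both taken 1 h after eclosion, over every gene counted. Its members were chosen by the sample labels alone: the 3 libraries named as wild type and the 3 named as mir210KO among the head RNA sequencing samples, 6 of the 18 samples of the series. Both groups were wDah, the outbred white Dahomey strain, which carries the endosymbiont Wolbachia. The deletion, from 1 mutant line, was made with Cas9 and a pair of guide RNAs that flank mir-210, and transgenic stocks were backcrossed into the Dahomey background. The labels call the flies adult and give the protocol of the whole study as once-mated females, while the head samples carry no sex label and were collected 1 h after eclosion. The deletion is in every cell of the animal, so changes in the eye and elsewhere in the head cannot be told apart in these bulk libraries. The other 12 samples are small RNA libraries of control tissues and were not used here.

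miR-210 is a conserved microRNA. A microRNA is cut from a hairpin transcript and guides the silencing machinery to messenger RNAs whose 3′ untranslated region (3′ UTR) pairs with its seed, bases 2 to 8 from its 5′ end, so that targets are degraded or translated less. In mammals miR-210 is known as a microRNA induced by low oxygen, while in flies it is known from the eye and brain. A head at this age also holds brain, muscle, fat body, cuticle-forming epidermis, sense organs and haemocytes, the blood cells of insects.

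Both arms of the hairpin and both guides are shown because they define what the mutant lacks. Capitals mark the seed in the arms and the PAM, the bases that Cas9 needs next to its target and that are not part of the guide. The arms are from RefSeq, and all positions are in Dm6, the genome build of the counts.
miR-210-3p: cUUGUGCGugugacagcggcuau
miR-210-5p: aGCUGCUGgccacugcacaagau
upstream guide: gccaatgatgattagtgtgccAGG
downstream guide: gcattaggcggcaatctctaCGG
The hairpin lies between genes on the plus strand of chromosome X, chrX:18128219-18128318. The upstream guide matched chrX:18128149-18128169 on the plus strand and the downstream guide chrX:18128366-18128385 on the minus strand.

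The 3 control libraries held 18931638 to 21315973 counts and the 3 miR-210Δ libraries 17992976 to 20486283. Counts were fitted with edgeR's quasi-likelihood test after trimmed-mean (TMM) normalization, and a gene was called at a Benjamini-Hochberg adjusted p under 0.05 over all 9470 genes that passed the count filter. SE stands for the standard error of a log2 fold change. Values are given as normalized counts, which are counts scaled to the mean effective library size, in the order replicate 1, 2 and 3. The labels do not say whether replicates came from separate flies, so the p-values reflect how far these libraries vary, and that variation may be technical. No library held a count of the targeted gene, mir-210 (0 in each of 6). Mature microRNAs are not captured through poly(A) tails, so this checks neither the deletion nor the labels. Markers of the tissue were present: the summed CPM (counts scaled to a common library total) of 8 photoreceptor markers were 20864 to 23329 in controls and 12143 to 12514 in miR-210Δ, and those of 5 neuronal markers were 3110 to 3392 and 3162 to 3380. Fewer cells of a type and less RNA per cell cannot be told apart in such sums.

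Control replicate 3 stood apart from the other 5 libraries and is described first because it enters every comparison. It carried more muscle RNA and also RNA of genes known from the testis. In 130 genes it lay more than 1.5 times above all 5 others, against 6 to 21 genes for each other library. It had a count for 680 genes that no other library detected, against 73 to 92, and these genes held 5052 counts in all.

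The muscle list, 37 genes of the contractile apparatus, summed to 64269 CPM in control replicate 3. The other 5 libraries held 46629 to 53415 CPM, the highest of them being miR-210Δ replicate 3. The library was the highest of the 6 for 29 of the 35 muscle genes tested. The excess was uneven among muscle genes. Act88F, the actin of indirect flight muscle, stood at 33.7, 35.3 and 145 CPM in the 3 controls and at 40.1, 39.0 and 50.8 CPM in the mutants. Act79B, an actin of tubular muscle such as leg and jump muscle, stood at 719.8, 923 and 3241 CPM in controls and at 998, 961 and 1298 CPM in mutants. Myosin heavy chain, Mhc, stood at 6880, 7249 and 10250 CPM in controls and 7690.2, 7506 and 7873 in mutants. The actin Act57B was level throughout, at 4857, 5077 and 4739 CPM in controls and 5052 to 5212 in mutants. Among genes with at least 10 CPM on average, 10 lay furthest above the other controls, at log2 ratios of 1.38 to 2.05. These were Act88F, Scp1, Act79B, SkpB, alphaTub85E, TpnC41C, Sol1, Mal-B1, Cpr92F and CheA7a. Genes below that level, such as the testis genes of the next paragraph, were not ranked. Scp1 encodes a sarcoplasmic calcium-binding protein and TpnC41C a troponin C. The ranked gene furthest below was PPO1, a prophenoloxidase of crystal cells, at 467, 389 and 273 CPM in controls and 425 to 490.3 in mutants.

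Of 50 genes listed for the testis, 37 had a count in control replicate 3 and 17 to 20 in each other library. S-Lap1, a sperm leucyl aminopeptidase, had 22, 20 and 246 counts in the controls and 6 to 12 in the mutants. The sperm mitochondrial gene loopin-1 had 0, 3 and 148 counts in the controls and 0 to 2 in the mutants. The male-specific transcript gene Mst98Ca had 73 counts and w-cup 83, all in this library. The library was also the only one with counts of Y-linked genes, 10 counts over the 4 genes kl-3, kl-5, ARY and CCY. A count of 0 in each other library allows up to 3 counts. The dosage-compensation RNA roX2, which is known from males, had 0 counts in all 6 libraries, roX1 had 26 to 41, and the yolk protein genes Yp1 and Yp2, which are known from females, had 32039 to 57959 in every library. Trypsin-family digestive enzymes, 27 genes, had 26 counts in control replicate 3 and 0 to 3 in each other library.

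**Figure D1:**
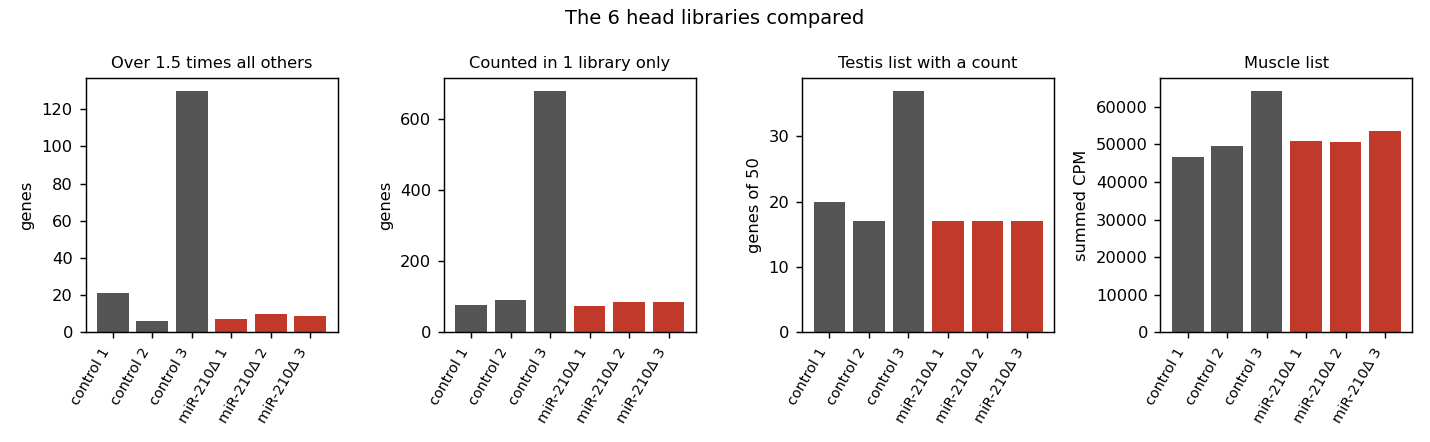
Bars give, for each of the 6 head libraries (controls grey, miR-210Δ red), the number of genes more than 1.5 times above all 5 other libraries, the number of genes counted in that library alone, the number of 50 testis genes with at least 1 count, and the summed CPM of 37 muscle genes. Control replicate 3 is highest in all 4 panels, with 130 genes, 680 genes, 37 genes and 64269 CPM.

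Leaving out control replicate 3 raised the number of called genes. With it, 956 of 9470 genes were called (10.1%), and without it 1278 of 9540 (13.4%). Of the 956 genes, 915 were also called without it and 0 of these changed direction. The 363 genes called only without it divided into 175 higher and 188 lower. Among muscle genes the direction turned: the median log2 fold change of the 35 tested was -0.10 with the library and 0.05 without it. Act79B had a log2 fold change of -0.65 (SE 0.445, edgeR adjusted p = 0.434) with it and 0.35 (adjusted p = 0.0356, edgeR) without it. Of the 130 genes high in this library 4 were called. A high value in 1 control widens the spread of the controls, so a low number called follows from how these genes were picked. The calls depend on the library. Each list below is therefore given with its counts without control replicate 3 where these differ by more than 1.5 times.

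Loss of miR-210 went with many small changes in these heads and few large ones. Of the called genes, 376 were higher (3.97% of those tested) and 580 lower (6.12%). The median log2 fold change over all tested genes was 0.00. The median size among called genes was 0.32, and 657 of them (68.7%) changed by less than 0.5. Values of the groups did not overlap for 2676 genes (28.3%), called or not. The size of a called change followed the level of the gene. Above 100 CPM, 362 of 2220 genes were called (16.3%) with a median size of 0.25. Below 1 CPM, 35 of 431 were called (8.12%) with a median size of 2.75 and none under 0.99. At a fold of at least 1.5, 246 genes were called (2.60%).

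Most called genes lay outside the processes for which this mutant is known, as did most genes tested. The lists of phototransduction, rhabdomere and fat synthesis genes held 42 of the 956 (4.39%). Of their 80 tested genes 52.5% were called, against 10.1% of all genes. Other function lists, without the list of eye pigment and retinal fate genes, held 166 of the 956 (17.4%) among 1476 tested, an 11.2% share close to the 10.1% of all genes. Genes on no function list made up 739 of the called genes (77.3%) among 7882 tested, a share of 9.38%. Genes with only a CG or CR number made up 323 of the called genes and 10.2% of those tested were called, and 29 of 227 non-coding RNA genes were called (12.8%). Among the 140 called genes with a log2 fold change of at least 1, of which 48 rose and 92 fell, 111 were on no function list and 19 were non-coding RNA genes.

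**Figure D2:**
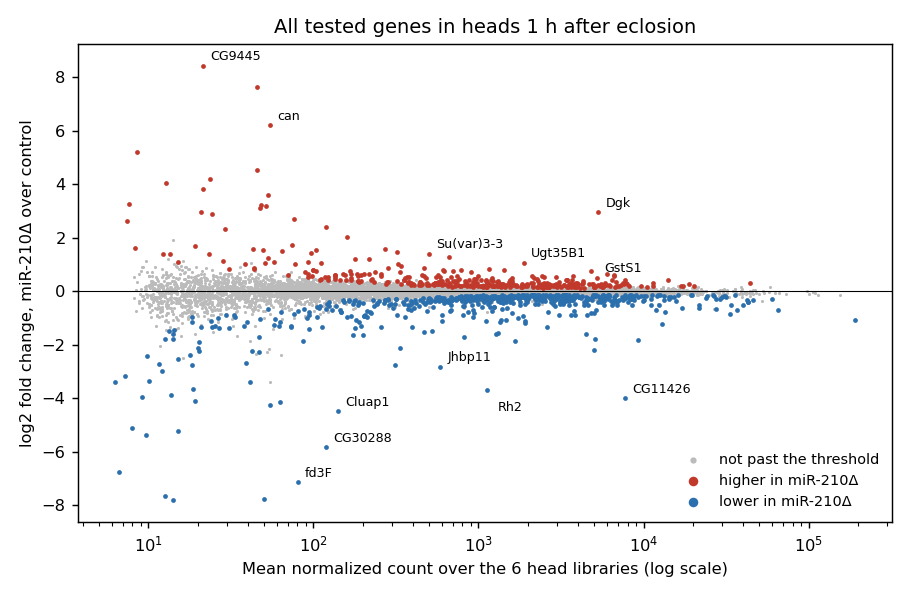
Each point is 1 of the 9470 tested genes, with its mean normalized count over the 6 libraries on a log axis and its log2 fold change of miR-210Δ over control, red where called higher (376), blue where called lower (580) and grey where not called. Called genes above 1000 normalized counts lie mostly within 1 of 0, while the changes beyond 4 in either direction lie in genes of low counts. The lipid phosphatase gene CG11426, also above 1000, lies at -3.997.

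Among well-expressed genes, those with at least 10 CPM in the higher group, the 8 largest rises had log2 fold changes of 1.21 to 2.95 and the 8 largest falls -2.13 to -5.83. The rises were those of Dgk, a diacylglycerol kinase, lncRNA:CR46003, asRNA:CR44053, CG4757, Polr3D, a subunit of RNA polymerase III, Su(var)3-3, a histone demethylase that removes methyl groups from histone H3, CG9416 and l(2)k05911. The falls were those of CG30288, Cluap1, a component of the transport particles of cilia, CG11426, a lipid phosphate phosphatase, the rhodopsins Rh2 and Rh4, Jhbp11, a member of the juvenile hormone binding protein family, CG10494 and CG4660.

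Dgk had 1205, 1279 and 1166 normalized counts in controls and 9048, 9690.2 and 9433 in mutants, with no overlap. Its log2 fold change was 2.95 (SE 0.0477, edgeR adjusted p = 5.94e-11). Su(var)3-3 had 285, 267 and 273 normalized counts in controls and 738, 714 and 734 in mutants. All mutant values of this demethylase gene were above all control values, with a log2 fold change of 1.41 (SE 0.0575, edgeR adjusted p = 7.46e-08). Polr3D had 159, 162 and 192 normalized counts in controls and 435, 457 and 519.6 in mutants. The groups were well apart, with a log2 fold change of 1.46 (SE 0.0977, edgeR adjusted p = 3.27e-06).

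CG11426 had 15348, 14976 and 13460 normalized counts in controls and 986, 990.2 and 760.3 in mutants. It was the most abundant of the 8 largest falls, with a log2 fold change of -3.997 (SE 0.0943, edgeR adjusted p = 7.93e-10). Jhbp11 had 859, 1184 and 1048 normalized counts in controls and 176, 143 and 115.01 in mutants, a log2 fold change of -2.82 (SE 0.145, edgeR adjusted p = 4.14e-07). Cluap1 had 293, 387 and 129.8 normalized counts in controls and 11.1, 12.1 and 12.8 in mutants. Control replicate 3 was the lowest control for this cilia gene, and the log2 fold change was -4.49 (SE 0.448, edgeR adjusted p = 7.62e-05).

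A few genes were nearly silent in 1 genotype. In 10 genes the 3 mutant libraries together held at most 3 counts and the controls at least 20, and in 3 genes the reverse held. The non-coding gene lncRNA:CR44222 had 297 counts over the controls and 1 over the mutants, a ratio of 299 (95% interval 53.3 to 11855, counting error only). CG33490 had 1 count over the controls and 274 over the mutants, a ratio of 272 (95% interval 48.4 to 10783). Its only control count was in replicate 3. The gene cGlr1, a cGAS-like receptor that senses double-stranded RNA in antiviral defence, had 87 and 2 counts, a ratio of 43.8 (95% interval 11.8 to 368). The odorant receptor gene Or67c had 1 and 50 counts, a ratio of 49.6 (95% interval 8.51 to 1999). CG13045 had 40 counts in the controls and 0 in the mutants, at least 13.4-fold lower when the mutant group is set to a floor of 3 counts. The testis gene can, a TATA-binding-protein-associated factor of spermatocytes, had 1, 3 and 0 counts in controls and 117, 85 and 122 in mutants, so its excess was in the mutants and not in control replicate 3, the library with the other testis transcripts.

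Gene lists were compared by the share of their tested members called, beside the 10.1% of all genes tested, with no test of the list. Among lists of at least 15 tested genes, and besides the light response and fat synthesis, UDP-glycosyltransferases had the highest share (9 of 20, 45%). Endoplasmic reticulum folding genes (8 of 24, 33.3%) and transporters, mainly of sugars and amino acids (6 of 20, 30%), came next. The list of eye pigment and retinal fate genes had 9 of 32 (28.1%). Phospholipid and sphingolipid enzymes (8 of 30, 26.7%), cuticle proteins (13 of 52, 25%), transmitter synthesis genes (6 of 26, 23.1%), aminoacyl-tRNA synthetases (7 of 31, 22.6%) and clock genes (4 of 18, 22.2%) followed. List medians lay between -0.07 and 0.04 in log2 for these 9 lists, near that of all tested genes.

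**Figure D3:**
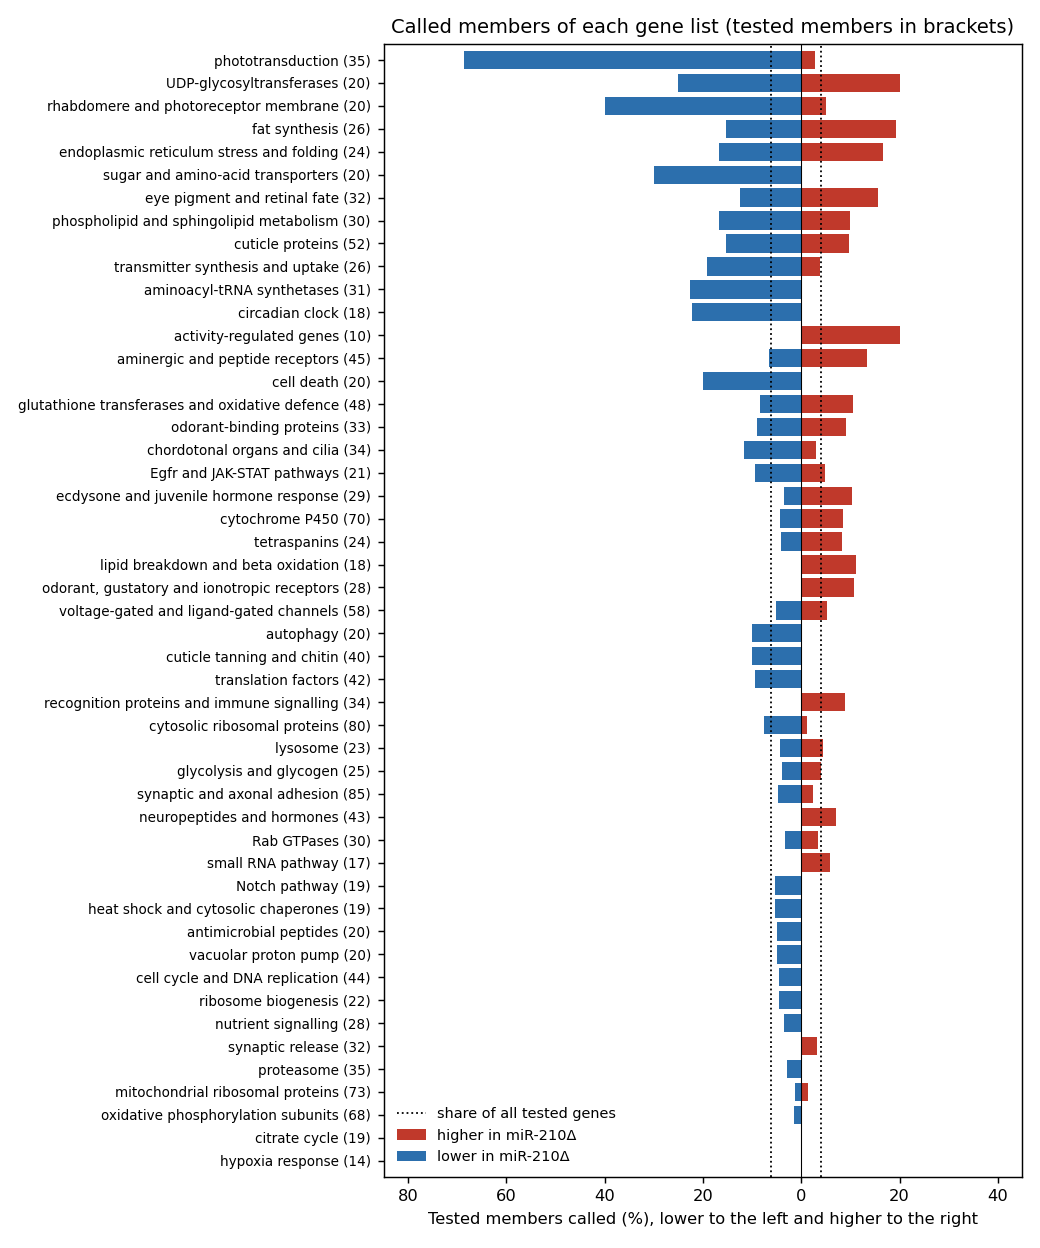
Bars give the percentage of the tested members of each gene list called lower (blue, to the left) or higher (red, to the right) in miR-210Δ, for lists with at least 10 tested members, whose number is in brackets. Dotted lines mark the shares of all tested genes, 6.12% lower and 3.97% higher, and synthetases, transporters, clock and cell death genes have bars on the lower side only.

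UDP-glycosyltransferases join sugars to small lipophilic molecules, which makes them soluble, and are known for detoxification and for odorant clearance. Of 20 tested, 4 rose, 5 fell and 11 did not pass, with a median log2 fold change of -0.07. Ugt35B1 had 1410.0, 1176 and 1072 normalized counts in controls and 2571, 2771 and 2258 in mutants. All mutant values exceeded all control values, with a log2 fold change of 1.06 (SE 0.0955, edgeR adjusted p = 3.75e-05). Ugt36A1 had 247, 269 and 322 normalized counts in controls and 161, 147 and 120.3 in mutants. This gene fell without overlap, with a log2 fold change of -0.96 (SE 0.128, edgeR adjusted p = 5.95e-04). Ugt317A1 and Ugt36D1 fell with log2 fold changes of -0.61 and -0.36. CG4757, which rose with 1.57, lies next to Ugt35B1 on chromosome 3R, at 11161207 to 11163498 against 11168503 to 11170246.

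Aminoacyl-tRNA synthetases load amino acids onto transfer RNAs. Of 31 tested, 7 fell, 0 rose and 24 did not pass, and the same number fell with DESeq2, with limma-voom and without any 1 library. None of the list rose with these tools either. LysRS had 2627, 2761 and 2612 normalized counts in controls and 1131, 1189 and 1161 in mutants. The level in mutants was below that of every control, with a log2 fold change of -1.20 (SE 0.0421, edgeR adjusted p = 2.29e-08). IleRS had 2155, 2059 and 1923 normalized counts in controls and 1193, 1177 and 1087 in mutants, a log2 fold change of -0.83 (SE 0.0541, edgeR adjusted p = 2.64e-06). LeuRS fell with -0.81, AsnRS with -0.58, and ThrRS, GluProRS and AlaRS with -0.30 to -0.25. At a fold of at least 1.5, LysRS, IleRS and LeuRS remained. Of 80 cytosolic ribosomal proteins 7 were called with edgeR, 12 without control replicate 3 and 21 with DESeq2. Their median log2 fold change was -0.11, 49 reached 0.05 before adjustment, and the groups did not overlap for 58 of them (72.5%, against 28.3% of all genes). Of 73 mitochondrial ribosomal proteins 2 were called and of 42 translation factors 4.

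Genes on the transporter list, mainly of sugars and amino acids, fell or did not pass. The list also holds carriers of other solutes, among them kumpel, kcc, Ncc69 and Indy. Of 20 tested, 6 fell and 0 rose. Without control replicate 3, 6 fell and 2 rose. JhI-21, an amino acid transporter of the SLC7 family, had 1975, 1954 and 1663 normalized counts in controls and 806, 847 and 847 in mutants. The mutants were at less than the lowest control in each library, with a log2 fold change of -1.16 (SE 0.0664, edgeR adjusted p = 9.45e-07). The glutamate transporter dmGlut had 1374, 1559 and 1576 normalized counts in controls and 841, 916 and 967 in mutants, a log2 fold change of -0.73 (SE 0.0664, edgeR adjusted p = 3.91e-05). JhI-21 and dmGlut are close neighbours on chromosome 2L, at 12051755 to 12056042 and 12027438 to 12034122. The rhodopsin gene Rh5, which fell with -1.85, lies beside them at 12008153 to 12009832. The glial monocarboxylate transporter kumpel fell with -0.43, the amino acid transporter path with -0.28, the glial glutamate transporter Eaat1 with -0.22 and the trehalose transporter Tret1-1 with -0.20.

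**Figure D4:**
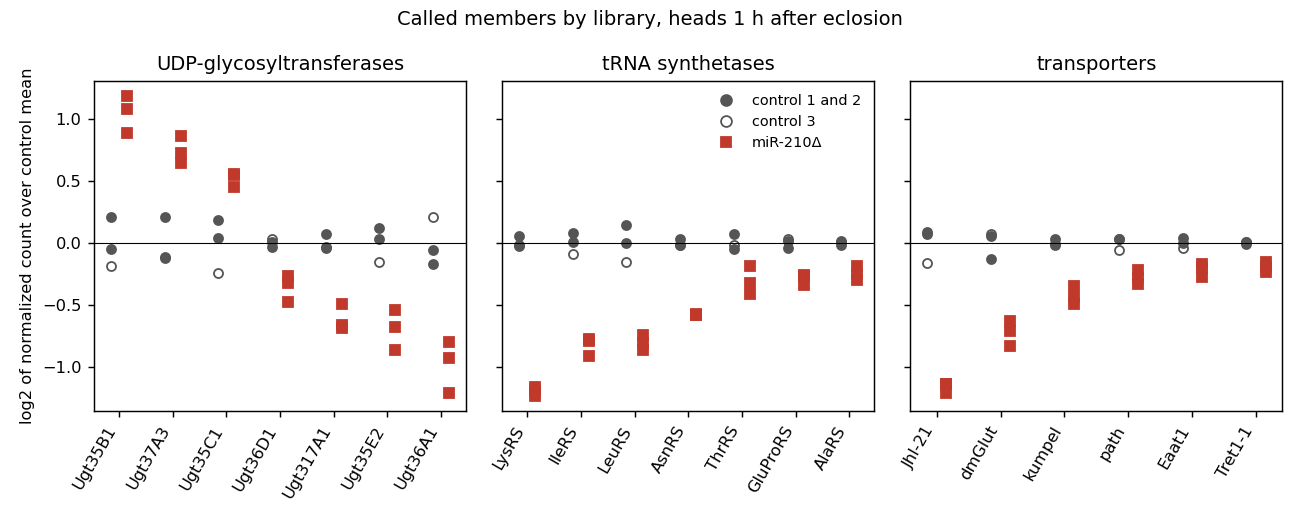
Points give, for each library, the log2 of the normalized count over the mean of the 3 controls for called UDP-glycosyltransferases, aminoacyl-tRNA synthetases and transporters (controls grey, control replicate 3 open, miR-210Δ red). In each gene shown the 3 mutant values lie on 1 side of the 3 control values, on both sides of 0 among the glycosyltransferases and below 0 in the other panels.

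Folding of proteins in the endoplasmic reticulum is watched over by chaperones and by sensors that trigger the unfolded protein response. Of 24 such genes, 4 rose and 4 fell. The chaperone gene Cnx99A, a calnexin known for its part in the maturation of rhodopsin, had 6105, 6097 and 5601 normalized counts in controls and 3142, 3204 and 3149.9 in mutants. It was the only member past a fold of 1.5, with a log2 fold change of -0.91 (SE 0.0422, edgeR adjusted p = 1.75e-07). The other 7 called members changed by no more than 0.25 in log2, among them Xbp1, the transcription factor of the response, with 0.18 (adjusted p = 0.00747, edgeR, and 0.0589 without miR-210Δ replicate 1). The number called was 13 without control replicate 3, 3 without control replicate 2, and 1, 3 and 4 without miR-210Δ replicates 1, 2 and 3.

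Phospholipid and sphingolipid enzymes changed in both directions. Of 30 tested, 3 rose, Dgk among them, 5 fell and 22 did not pass. Pis, which makes phosphatidylinositol, had 4743, 4931 and 4508 normalized counts in controls and 2862, 2871 and 2785 in mutants. The mutants were below every control, with a log2 fold change of -0.74 (SE 0.0416, edgeR adjusted p = 8.95e-07). Cds, which makes its precursor CDP-diacylglycerol, fell with -0.24, and Pss, which makes phosphatidylserine, with -0.27. Without miR-210Δ replicate 2 the list had 4 called genes.

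Detoxification and oxidative defence genes changed in both directions. Of 48 glutathione transferases and antioxidant enzymes 5 rose and 4 fell (18.8%), while DESeq2 called 6. The cytochrome P450 list, matched mainly by the symbol start Cyp, had 6 of 70 genes higher and 3 lower (12.9%), while DESeq2 called 7. It includes the cyclophilin genes Cyp1 and Cyp40, which are not P450 genes and did not pass. GstS1, a glutathione transferase that is abundant in flight muscle and brain, had 4391, 4197 and 4347 normalized counts in controls and 6022, 6047 and 6159 in mutants. The groups were apart, with a log2 fold change of 0.49 (SE 0.0358, edgeR adjusted p = 6.33e-06). Cyp6g1, a P450 known from insecticide resistance, had 789, 829.6 and 906 normalized counts in controls and 519.9, 513 and 479 in mutants, a log2 fold change of -0.74 (SE 0.0640, edgeR adjusted p = 2.72e-05). The peroxiredoxin Prx6c fell with -0.28. Cyp4d14 had 3.11, 2.79 and 5.27 normalized counts in controls and 89.1, 141 and 30.9 in mutants, which differed among themselves by more than the controls did.

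Families were also formed from symbols alone, by the letters before the first number, with no list of functions. Of 41 families with at least 10 tested genes, 3 had at least 3 times the background share called: Ugt (45%), Jhbp (40%, 4 of 10) and Nepl (33.3%, 5 of 15). The Jhbp genes, named for a juvenile hormone binding domain, were split, with 2 higher and 2 lower. Jhbp5 fell with a log2 fold change of -1.33 and Jhbp16 rose from 6.21, 13.02 and 9.49 normalized counts in controls to 77.1, 65.3 and 115.01 in mutants (log2 fold change 3.13, SE 0.320, edgeR adjusted p = 9.04e-05). The Nepl genes encode neprilysin-like peptidases, which are thought to cut peptides outside cells, and 3 rose and 2 fell. Nepl11 had 15411, 15390 and 13648 normalized counts in controls and 9144, 9130.3 and 8685 in mutants. It was the most abundant called Nepl gene and lay lower in every mutant library, with a log2 fold change of -0.72 (SE 0.0524, edgeR adjusted p = 6.35e-06).

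Cuticle protein genes changed in both directions, and their number depended on the libraries used. Of 52 tested, 5 rose and 8 fell. Cpr64Ac had 254, 227 and 308 normalized counts in controls and 123, 127 and 100.1 in mutants. This structural gene fell without overlap, with a log2 fold change of -1.17 (SE 0.135, edgeR adjusted p = 2.25e-04). The number called was 24 (13 higher and 11 lower) without control replicate 3, 5 without miR-210Δ replicate 1 and 8 without miR-210Δ replicate 2. Without control replicate 3 the median log2 fold change of the list was -0.04, against -0.07 with it.

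Some hormone and activity genes of the brain and head changed. Of 29 genes of the ecdysone and juvenile hormone response 3 rose and 1 fell (13.8%, against 10.1% of all genes). Of 10 activity-regulated genes 2 rose and 0 fell (20%). Kr-h1, a transcription factor induced by juvenile hormone, had 1581, 1428 and 1468 normalized counts in controls and 1062, 1000.3 and 912 in mutants, a log2 fold change of -0.59 (SE 0.0617, edgeR adjusted p = 1.08e-04). Hr38, a nuclear receptor induced by neuronal activity, had 499, 551 and 677 normalized counts in controls and 993, 919.9 and 1057 in mutants. It rose without overlap, with 0.78 (SE 0.0961, edgeR adjusted p = 3.30e-04), and the ecdysone-induced receptor Eip78C rose with 0.51. Among 45 aminergic and peptide receptors 6 rose and 3 fell (20%), while DESeq2 called 3 in all. They included 5-HT7, a serotonin receptor (0.52), CCAP-R, the receptor of crustacean cardioactive peptide (-0.74), and CrzR, the corazonin receptor (-0.45).

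Transmitter genes that fell included those of histamine, the transmitter of photoreceptors, and others. Of 26 genes of transmitter synthesis and uptake 1 rose and 5 fell, and 10 were called without control replicate 3 (2 higher and 8 lower). Hdc, which makes histamine, had 2037, 2078 and 1874 normalized counts in controls and 907, 1003 and 929 in mutants, a log2 fold change of -1.08 (SE 0.0550, edgeR adjusted p = 3.87e-07). Also lower were t, which takes part in histamine recycling (-0.33), Pu, which makes the pteridine cofactor of dopamine synthesis and eye pigment precursors (-0.32), and the glutamate transporter gene Eaat1 (-0.22). The fifth was e (-0.39), which joins beta-alanine to histamine and dopamine and lost the call without miR-210Δ replicate 2 (adjusted p = 0.0518, edgeR). In a list of 9 genes of the histamine cycle that was added after its values were seen, 5 fell, and Balat, CarT, ine and ort did not pass. Its member lovit, the vesicular histamine transporter gene, had 2019.8, 1953 and 1771 normalized counts in controls and 631, 610.2 and 662 in mutants. Of 32 genes of synaptic release 1 was called (4 without control replicate 3). The 4 clock genes called were lower by small amounts, with per, a repressor of the clock, at -0.38 and its partner tim at -0.20. The transcription factor genes vri (-0.21) and Clk (-0.17) lost the call without miR-210Δ replicate 2 (adjusted p = 0.0731 and 0.120, edgeR) or replicate 3 (0.0724 and 0.0760), and Clk also without control replicate 2 (0.125) or miR-210Δ replicate 1 (0.109).

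Some genes of fat body, haemocytes, immunity and cell death also changed. Of 13 head fat body genes 3 rose and 0 fell (23.1%, against 10.1% of all genes). The yolk protein gene Yp3 rose with a log2 fold change of 0.56. The lipid droplet protein gene Lsd-1 and the larval serum protein gene Lsp1gamma rose with 0.41 each. Without control replicate 3, 4 rose and 1 fell. Yp3 had 5734, 4486 and 5805 normalized counts in controls and 8369, 7755 and 7423 in mutants (SE 0.0863, edgeR adjusted p = 0.00166). Of 13 haemocyte genes 1 rose and 3 fell (30.8%), with Hml, a haemocyte clotting factor, at -0.31. The genes vkg and Col4a1, which fell, and NimC1, which rose, each lost the call when some 1 library was left out. Recognition proteins of immunity rose in 3 of 34 genes and fell in 0, a share of 8.82% against 10.1% of all genes. PGRP-LA, a peptidoglycan recognition protein, was at 0.56. Of 20 antimicrobial peptide genes 1 was called (5%), which was lower. Without control replicate 3, 8 of them were called, 5 higher and 3 lower. Of 20 cell death genes 4 fell and 0 rose (20%). The largest change was that of hid, which blocks the inhibitor of apoptosis Diap1, with 3111, 4691 and 6307 normalized counts in controls and 2717, 2179 and 2692 in mutants (log2 fold change -0.89, SE 0.195, edgeR adjusted p = 0.0138). Its controls differed widely among themselves, and it lost the call without miR-210Δ replicate 2 or 3 (adjusted p = 0.0888 and 0.0554, edgeR). The initiator caspase gene Dronc fell with -0.32 and its partner Dark with -0.29. The marker sums were 5503 to 6119 CPM in controls and 6028 to 6502 in mutants for fat body and 2312 to 2449 and 2190 to 2203 for haemocytes. Their part in these changes was not tested.

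Flies build motile cilia in sperm and in the stretch receptors called chordotonal organs. Of 34 tested genes of chordotonal organs and cilia, 1 rose and 4 fell, a share of 14.7% against 10.1% of all genes. The forkhead transcription factor gene fd3F, which drives the motile cilia programme of chordotonal neurons, had 169.8, 133 and 176 normalized counts in controls and 2.79, 0 and 0 in mutants. Its counts were 474 and 3 over the groups, a ratio of 159 (95% interval 54.1 to 774). Dhc93AB, a heavy chain of the dynein motor of cilia, had 392.4, 379 and 556 normalized counts in controls and 746, 778 and 794 in mutants, a log2 fold change of 0.81 (SE 0.117, edgeR adjusted p = 0.00105). The median log2 fold change of the list was -0.05.

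Few genes of respiration, protein breakdown and the cell cycle were called with edgeR. Of 68 subunits of oxidative phosphorylation 1 was called (4 without control replicate 3), of 35 proteasome genes 1 (2 without it), of 20 proton pump subunits 1 (2 without it and 4 with DESeq2), and of 44 genes of cell cycle and DNA replication 2. In the citrate cycle 0 of 19 genes were called with edgeR and 0 with limma-voom, while DESeq2 called 2 and 6 reached 0.05 before adjustment. The citrate synthase gene kdn had 21608, 20892 and 23666 normalized counts in controls and 20245, 19845 and 20182 in mutants, with a log2 fold change of -0.13 (adjusted p = 0.125, edgeR). The list of the response to low oxygen, for which miR-210 is known in mammals, had 0 of 14 genes called with edgeR and 0 with limma-voom, 1 with DESeq2 and 1 at 0.05 before adjustment. Without control replicate 3 edgeR called 1, the translation inhibitor gene Thor, which was lower (log2 fold change -0.17, adjusted p = 0.0317). The hypoxia-induced gene scyl had 19670, 19549 and 18744 normalized counts in controls and 18398, 18099 and 19759 in mutants, which overlap, with a log2 fold change of -0.04 (SE 0.0453, edgeR adjusted p = 0.633).

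Called genes were spread evenly over the chromosomes. The share called was 9.20% to 10.8% on the 5 large arms and chromosome 4, with 10.8% of 1527 genes on X, where mir-210 lies. Within 50 kb of mir-210, 1 of 13 tested genes was called. This was lncRNA:CR32553, the nearest tested gene to the left, on the minus strand at 18124575 to 18127027 of chromosome X, 1192 bases from the hairpin. It had 21.7, 39.1 and 34.8 normalized counts in controls and 3.71, 5.03 and 5.32 in mutants. The groups were apart at this low level, with a log2 fold change of -2.75 (SE 0.373, edgeR adjusted p = 6.58e-04). The nearest tested gene to the right, ari-1, a ubiquitin ligase gene, had 3785, 3851 and 3541 normalized counts in controls and 3546, 3348 and 3639.7 in mutants, with overlap and a log2 fold change of -0.09 (adjusted p = 0.305, edgeR). Within 500 kb, 8 of 65 genes were called (12.3%), with CG8173, at a distance of 418566 bases, highest at 2.69.

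**Figure D5:**
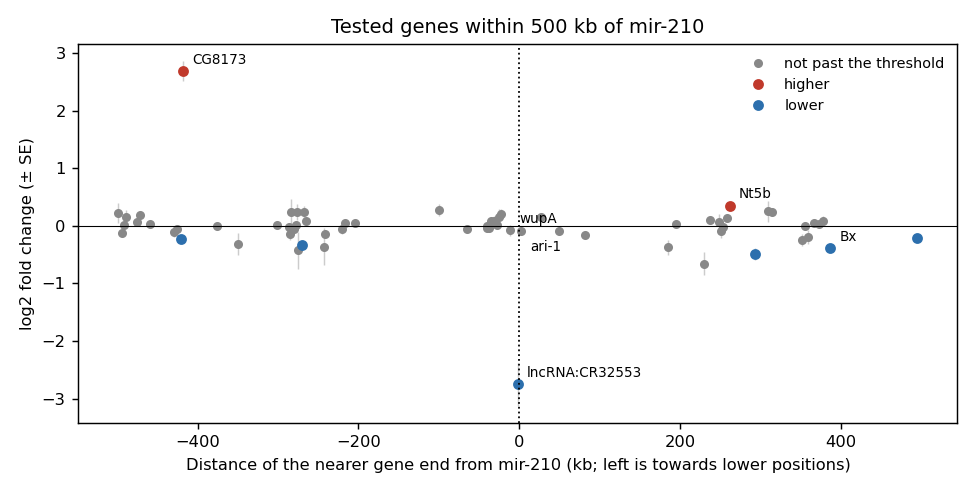
Points give the log2 fold change of miR-210Δ over control, with its standard error, for the 65 tested genes within 500 kb of mir-210 by distance of the nearer gene end in kb (red called higher, blue called lower, grey not called). The non-coding gene lncRNA:CR32553 next to the hairpin lies at -2.75, CG8173 to its left at 2.69, and the other genes lie within 1 of 0.

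Genes with a large change were compared by their distance to the next one. After genes with identical counts were counted once, 139 genes were called with a log2 fold change of at least 1, and 54 of these (38.8%) had another such gene within 50 kb. Of the other 9203 tested genes, 1236 (13.4%) had such a gene within 50 kb. The shares were 30.2% and 7.51% within 20 kb and 45.3% and 22.5% within 100 kb, and they carry no test. On chromosome 3L, Or67c (5.19), can (6.21) and lncRNA:CR46003 (2.38) lay between 10243320 and 10307968. On chromosome 2R, CG10494 (-2.77), CG30288 (-5.83) and CG30289 (-1.92) lay between 21516774 and 21521848. Neighbours could also go opposite ways. Of the amylase genes, Amy-p fell with -2.70 and its neighbour Amy-d rose with 0.73, which is under the cut of 1 used here. Reads mapped to several places were dropped, and whether this moved the counts of these amylase genes was not tested. What sets these positions was not tested.

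The study names 9 genes beside these libraries, of which Dgk, FASN1, CG5554 and Apc were called higher. The study picked Dgk, FASN1, CG5554, Apc and Vha55 with these samples, so they are not independent evidence of direction. Apart from Dgk the rises were 0.15 to 0.21. FASN1, the fatty acid synthase gene, did not pass without miR-210Δ replicate 1 or 2 (adjusted p = 0.0670 and 0.0622, edgeR), CG5554 did not without miR-210Δ replicate 2 (adjusted p = 0.0593, edgeR), and Apc did not without control replicate 1 (adjusted p = 0.0821) or without each miR-210Δ replicate in turn (adjusted p = 0.142, 0.0610 and 0.0941, edgeR). The kinase gene rdgA (0.04), the oxygen-sensing factor gene sima (-0.00) and scyl (-0.04) did not pass. Vha55 (0.10) and the lipase gene bmm (-0.15) did not pass either, but did without control replicate 3 (adjusted p = 0.0306 and 0.0126, edgeR). The study counts Vha55 among its putative targets with raised RNA.

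Genes whose 3′ UTR pairs with the miR-210-3p seed were compared with all 9176 tested genes that have an annotated 3′ UTR, of which 3.90% were higher and 6.08% lower. The word CGCACAA, which pairs with bases 2 to 8, was searched on the transcript's strand and found in 329 genes (3.59%), of which 20 were higher (6.08%) and 15 lower (4.56%), with a median log2 fold change of 0.02. The word ACGCACA, which pairs with bases 3 to 9, was found in 453 genes (4.94%). Of these 23 were higher (5.08%) and 25 lower (5.52%), with a median of -0.00. FASN1 and Apc held this word, and the study replaced it in the mutated form of its FASN1 3′ UTR reporter. With the FASN1 3′ UTR in human cells, the study detected no drop in luminescence that depended on miR-210. The paper states that a direct action on FASN1 in the animal remains unclear. Both words were found in 135 genes, of which 3 were higher (2.22%) and 8 lower (5.93%). The words overlap where they pair with the same site. The word GCACAAA, for bases 2 to 7 followed by A, was found in 642 genes, 43 higher (6.70%) and 27 lower (4.21%). The word CGCACAAA, for bases 2 to 8 followed by A, was found in 136 genes, 9 higher (6.62%) and 5 lower (3.68%). These shares carry no test, and a match is not a binding site. The sites of 4 genes called higher show what CGCACAA and ACGCACA look like in place. The word is in capitals and the chromosome strand of the gene is followed.
Eip78C, chr3L:21264730-21264736, plus strand, bases 2 to 8: ttcatcccCGCACAAtcccaacc
nAChRalpha7, chrX:19328676-19328682, minus strand, bases 2 to 8: gaaatgatCGCACAAtaaattca
5-HT7, chr3R:30969282-30969288, minus strand, bases 3 to 9: tgcgtgccACGCACAcaatcaca
loqs, chr2L:13385264-13385270, plus strand, bases 3 to 9: aaatctgaACGCACAccacgacc
The positions are those of the word. Eip78C rose with a log2 fold change of 0.51, the acetylcholine receptor subunit gene nAChRalpha7 with 0.29, 5-HT7 with 0.52, and loqs, a partner of Dicer in microRNA processing, with 0.26.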

How the data were processed

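Poly(A) RNA of heads was sequenced as single-end reads in 3 control and 3 miR-210Δ libraries, grouped by their labels. For trimming the authors used Trim Galore 0.3.7 and for alignment to Dm6 TopHat2, SAMtools served to drop reads mapped to several places, and the deposited values are raw counts per gene. Per the labels the libraries were stranded. As for the counter and its strandedness, nothing is given in the sources used here. Of 37 genes lying for at least 90% of their exon bases inside an opposite-strand gene of at least 50 CPM, 32 had under 5% of its level per base, and 224 tested genes share identical counts with another gene, so reads of overlapping genes on 1 strand were counted for each. From the authors' deposited table of their own comparison, which holds DESeq2 fold changes and p-values, gene symbols alone were used. Columns of per-sample values left unused numbered 0.

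Counts were analysed with edgeR 4.0.16, DESeq2 1.42.0 and limma 3.58.1 in R 4.3.3. Figures were drawn with Python 3.11.15 and matplotlib 3.10.9. An annotation entry was found for 15186 of 15406 genes through the identifier and for 192 through the symbol, and 28 had none. The 9470 genes kept by the edgeR filter were TMM-normalized and tested by quasi-likelihood with Benjamini-Hochberg adjustment at 0.05. Replicates had a common dispersion of 0.00307, a coefficient of variation of 5.54%. On simulated counts for these 9470 genes the fit recovered 34.7% of log2 changes of 0.25, 74% of 0.5, 88% of 1 and 100% of 2. Of 9208 genes simulated without a change, 13 were called. Ratios with at most 3 counts in a group have exact 95% binomial intervals for counting error only.

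The members and the lists were chosen with earlier results of these data known, and 4 lists after values were seen. A set of 202 named genes was drawn by rule and followed through the alternatives, and not all of them appear in the text. It held the 8 largest rises and falls among called genes without overlap at 10 CPM or more. It also held 5 of each at 1 to 10 CPM. Each list gave up to 4 called members, or its 2 most abundant members where none was called. The genes the study names, the 8 most abundant muscle genes and the 2 tested genes nearest to mir-210 on each side completed it. For control replicate 3, genes with at least 10 CPM on average were ranked. The 10 furthest above the other controls were named, and of the 5 furthest below only PPO1. Near-silent genes, further members of lists and families, neighbours of large changes and germline genes that the rule does not cover were picked with their values in view. Alternatives were DESeq2, limma-voom, other size factors and count filters, a replicate block, each library left out, a fold threshold, the muscle genes taken out, and other distances, seed words and family sizes.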

Additional observations from a re-analysis of the deposited data

Results flagged for a closer look

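Control replicate 3 held a signal outside the comparison of heads that the other 5 libraries did not share. Of 50 testis genes, 37 had a count there, against 17 to 20 in each other library. It alone detected 680 genes, with 5052 counts, against 73 to 92 genes in each other library. Of the Y-linked genes 4 had a count there, with 10 counts in all, against 0 in each other library. What brought this RNA into the library was not tested.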

How the results depend on the processing

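The 956 called genes numbered 818 with DESeq2, 966 with limma-voom, 950 with other size factors, 917 without a filter, 900 above 5 CPM, 965 with muscle genes taken out and 949 with genes of identical counts counted once (chosen after seeing the data). At a fold of at least 1.5 there were 246 (86 higher and 160 lower). Leaving out 1 library gave 594 to 1278 called genes, 219 to 523 higher and 375 to 755 lower, and without miR-210Δ replicate 1 or 2 there were 594 and 620 (219 and 234 higher, 375 and 386 lower).

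With the replicate number as a block 855 genes were called (313 higher and 542 lower). Deviations of same-numbered libraries had correlations of -0.0801, 0.0680 and 0.104, and control replicate 2 correlated best with miR-210Δ replicate 1 (0.139). Correlations this weak cannot tell whether the numbers pair the samples.

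At a fold of at least 1.5, synthetases had 3 called genes, folding genes 1, cuticle proteins 7, transmitter genes 1, clock genes 0 (4 without a fold threshold), phospholipid genes 2, transporters 2 and eye genes 4. Cuticle proteins had 8 above 5 CPM. Leaving out 1 library gave 1 to 13 for folding genes, 5 to 24 for cuticle proteins, 5 to 10 for transmitter genes, 2 to 4 for clock genes and 4 to 11 for phospholipid genes. The genes in which control replicate 3 exceeded all others numbered 45 at 2-fold. Symbol families with 3 times the background share numbered 14 when 5 genes sufficed. Act79B turned from -0.65 to 0.35 without control replicate 3 (-1.01 to 0.35 over all such fits) and was the only 1 of 202 named genes to change sign while called. Of the 178 named genes called, 58 lost the call without some 1 library. The causes were not tested. Changes under 0.25 in log2 were at the limit of what 3 libraries a group at this depth recovered.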
